A study of Mus musculus with 6 samples.

Results

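The 9 genes described here encode the pumps and sodium-calcium exchangers that carry calcium out of the cytosol. They were chosen by name from the 32532 gene rows of the count tables, and all 9 were found and passed the filter on low counts, as did 16496 rows in all. Atp2a2 and Atp2a3 encode SERCA pumps of the endoplasmic reticulum, Atp2b1 to Atp2b4 the PMCA pumps of the plasma membrane, and Slc8a1 to Slc8a3 the exchangers NCX1 to NCX3. The RNA came from thalamus of untreated adult Slc17a6-EGFP/Rpl10a (JX883) transgenic mice, as 3 immunopurified (IP) and 3 Input libraries, each numbered 1 to 3. In translating ribosome affinity purification (TRAP), an EGFP-tagged ribosomal protein, here Rpl10a, is made in chosen cells, and its ribosomes are pulled from homogenised tissue with antibodies to EGFP. All 6 libraries thus carry the same transgene, in a line named for the vesicular glutamate transporter gene Slc17a6. The labels name ribosome-bound RNA as the molecule of Input too, do not say whether a replicate was 1 animal or a pool, and give neither sex nor exact age. P-values therefore rest on how far these libraries vary, and that variation may be technical. The comparison asked how the levels of the pumps and exchangers, and their mix within each family, differed between RNA of tagged cells and RNA of the dissected tissue.

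Calcium that enters a neuron through channels must be removed again. SERCA and PMCA pumps do this against the gradient with ATP and bind calcium tightly, while exchangers of the NCX family move more calcium at lower affinity and use the sodium gradient. PMCA pumps are switched on by calcium-bound calmodulin. Relay neurons of the thalamus fire bursts driven by low-threshold calcium channels, so they take up calcium with each burst. SERCA and PMCA belong to the P-type ATPases, which phosphorylate an aspartate of their own chain in each transport cycle.

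Coding stretches around the sites that define the families are shown for 7 of the 9 genes because the counts compare paralogs whose sequences are alike at these sites. For the pumps, the capitals mark the 5 codons for aspartate, lysine, threonine, glycine and threonine, of which the aspartate is the phosphorylated residue. For the exchangers, the capitals mark the 6 codons for glycine, serine, serine, alanine, proline and glutamate in the first of the repeats that bind the transported ions. Each stretch has 15 bases on either side, is written 5′ to 3′ on the coding strand, and comes from the transcript with the longest open reading frame in GENCODE M21 (GRCm38).
Atp2a3: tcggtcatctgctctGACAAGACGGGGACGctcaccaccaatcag
Atp2b1: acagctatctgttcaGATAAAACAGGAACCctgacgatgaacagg
Atp2b2: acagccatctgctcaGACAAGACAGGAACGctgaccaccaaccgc
Atp2b4: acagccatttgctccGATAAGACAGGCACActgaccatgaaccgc
Slc8a1: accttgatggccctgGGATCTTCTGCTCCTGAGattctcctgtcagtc
Slc8a2: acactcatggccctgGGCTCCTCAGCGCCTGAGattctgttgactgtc
Slc8a3: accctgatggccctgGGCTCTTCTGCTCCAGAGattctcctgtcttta
The marked aspartate is codon 351 in Atp2a3 and codons 475, 499 and 466 in Atp2b1, Atp2b2 and Atp2b4. Over whole coding sequences, Atp2a2 and Atp2a3 were 70.4% identical. Identity among the PMCA genes ran from 72.1% for Atp2b1 and Atp2b4 to 78.2% for Atp2b2 and Atp2b3, and among the exchangers from 68.7% to 72.5%. The longest stretch of identical bases in the transcripts of any pair within a family was 56 bases, for Atp2b2 and Atp2b3. In the other pairs it was between 20 and 45 bases. The read length is not given in the sources used here, so the share of reads that such stretches could send to more than 1 place is not known.

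The libraries held between 44081149 and 54421395 gene reads, and 3 reads, the floor of detection, corresponded to between 0.0551 and 0.0681 CPM (reads scaled to a common library size). Slc17a6 had 6489, 2193 and 2200 CPM in IP replicates 1, 2 and 3 and 3153, 876 and 478 CPM in Input, higher in IP in 3 of 3 replicate numbers. Its groups overlapped, and at log2 1.27 ± 0.68 it was not called (edgeR adjusted p = 0.206). It was called with the replicate block at 1.52 ± 0.19 (edgeR adjusted p = 0.000246), and also with Input replicate 1 left out (2.43, edgeR adjusted p = 0.0161) or the pair numbered 1 left out (1.70, 0.00893). Of 14 thalamic glutamatergic markers 5 were higher and 0 lower in IP, with summed levels of 8183 to 13010 CPM in IP and 3133 to 8716 CPM in Input. Markers of glia and vessels were lower in IP: all 12 oligodendrocyte markers were lower (188 to 336 CPM summed in IP, 4098 to 5845 in Input), as were 11 of 12 astrocyte markers (441 to 880 against 1860 to 3423), 9 of 10 microglial markers (2.63 to 3.93 against 61.5 to 88.4) and 6 of 9 endothelial markers (1.64 to 2.21 against 14.1 to 22.1). Trem2 and Tie1 had no IP read. Of 12 GABAergic markers 8 were lower (105 to 342 against 1081 to 1811). Input replicate 3 stood apart from Input replicates 1 and 2, with summed striatal markers 4.20 times, choroid plexus and ependymal markers 27.7 times and thalamic markers 0.44 times their mean. Summed choroid plexus and ependymal markers were also high in IP replicate 3, at 4.22, 5.87 and 45.9 CPM in IP replicates 1, 2 and 3. GABAergic markers had 105, 172 and 342 CPM there, and striatal markers 247, 201 and 270.5 CPM. Both libraries of replicate 1, which ran in lane 3, stood apart for the genes described here, as given next.

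Replicate 1 held the highest level of most pumps and exchangers. Of the 9 genes, 8 were highest in replicate 1 within IP, 7 within Input, and the same 7 in both groups, all but Atp2b4 and Slc8a2. In both groups Atp2a2, Atp2a3, Atp2b1 and Atp2b2 were at least 2 times as high in replicate 1 as in the mean of replicates 2 and 3, at 2.42, 4.40, 2.64 and 2.37 times in IP and 3.09, 4.59, 2.30 and 2.31 times in Input. This comparison was chosen after the values were seen. The 10907 genes that averaged 5 CPM or more leave out Atp2a3. Of them, 40.4% were highest in replicate 1 within IP, 38.7% within Input and 24.4% in both groups. At least 2 times as high in both groups were 2.30%. Genes with long transcripts were more often highest in replicate 1 in both groups. The share was 31.6% of genes whose longest transcript had 5203 bases or more and 15.1% of those with at most 2497 bases. The part of length or lane in these levels was not tested. Since an IP library and the Input library of its number departed from their group means together, fits with the replicate number as a block are given beside the fits without it where the call of a gene or count described below differs.

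**Figure D1:**
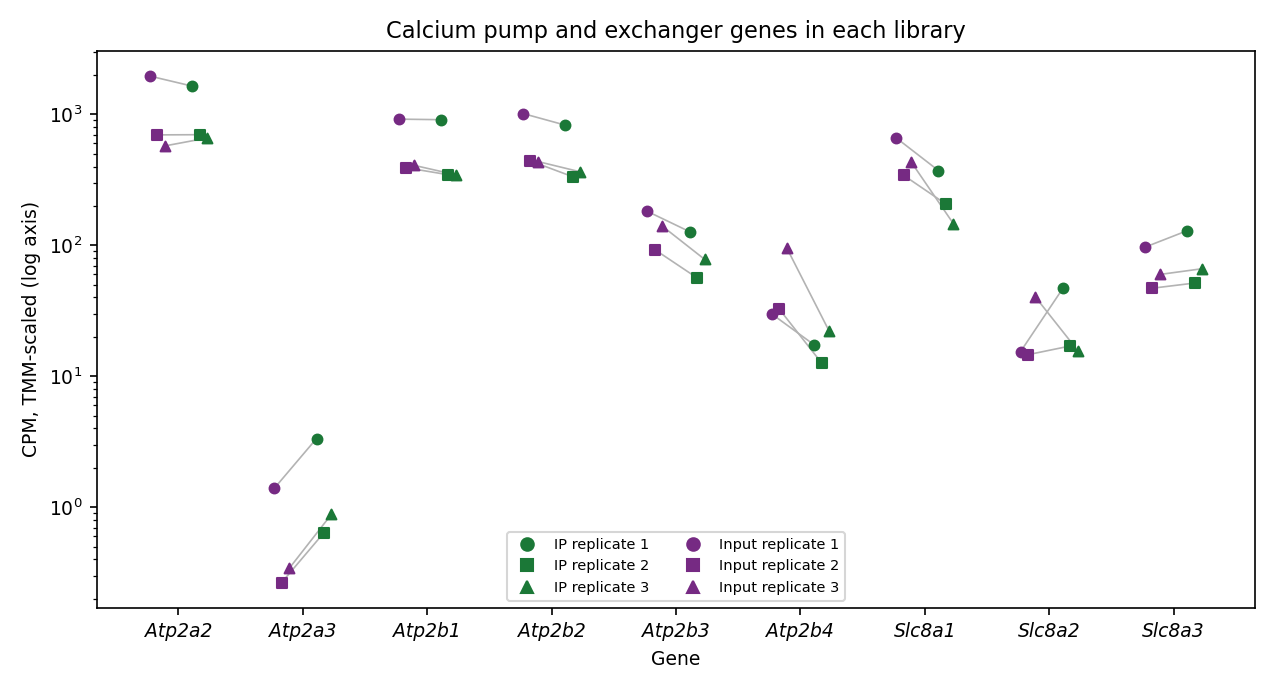
Level of each of the 9 genes in each library, in TMM-scaled CPM on a log axis, with Input in purple, IP in green, 1 marker shape per replicate number and a grey line between same-numbered libraries. Atp2b4 is the only gene whose IP values (12.7 to 22.3 CPM) all lie below its Input values (29.9 to 95.8 CPM), and circles (replicate 1) are highest for most genes in both groups.

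By reads per kilobase of exon, so that genes can be compared, Atp2a2 was the most abundant of the 9 in both groups and Atp2a3 the least. In IP the mean levels, in CPM per kilobase of the exon union (SD, n = 3), fell in the order Atp2a2 (165 ± 91.7), Atp2b2 (40.3 ± 21.9), Atp2b1 (35.1 ± 21.5), Atp2b3 (18.1 ± 7.51), Slc8a3 (15.5 ± 7.76), Slc8a1 (12.9 ± 6.22), Slc8a2 (5.05 ± 3.35), Atp2b4 (1.42 ± 0.393) and Atp2a3 (0.307 ± 0.284). Neighbours from Atp2b2 down to Slc8a2 overlapped in their ranges over the 3 IP libraries, while Atp2a2 lay above the rest and Atp2b4 and Atp2a3 below. In Input the order was the same except that Slc8a1 (25.5 ± 8.74) stood above Slc8a3 (12.7 ± 4.84), with no overlap between them. The Input ranges also did not overlap between Atp2a2 and Atp2b2, Slc8a3 and Slc8a2, or Atp2b4 and Atp2a3. Per kilobase of the longest transcript instead, Atp2b1 stood above Atp2b2 in both groups (74.9 against 57.3 in IP), and in Input Atp2b4 stood above Slc8a2. Per kilobase of coding sequence Slc8a1 moved up to the fourth place in IP, above Slc8a3 (83.1 against 29.6), and to the third in Input. The exon union of Slc8a1 has 18807 bases and its coding sequence 2910. Ranks of Atp2a2 and Atp2a3 were the same with all 3 lengths.

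Of the 9 genes, 0 were called higher and 1, Atp2b4, was called lower in IP (edgeR quasi-likelihood test, adjusted p under 0.05). Among all tested genes 9.6% were called higher and 15.6% lower, so the share of calls among the 9 lay close to that of all genes. At an unadjusted edgeR p under 0.05, 0 were higher and 2 lower. By DESeq2 and by limma-voom 0 were higher and 2, Atp2b4 and Slc8a1, lower. With the replicate block 0 were higher and 3 lower, Atp2b3, Atp2b4 and Slc8a1, against 15.9% and 19.2% of all genes. The median log2 fold change of the 9 was -0.11, that of all tested genes -0.04. The IP and Input levels of 1 of the 9 did not overlap, against 44.9% of all genes. By replicate number, 5 of the 9 were lower in IP in 3 of 3 (33.7% of all genes) and 2 were higher in 3 of 3 (30.3%).

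**Figure D2:**
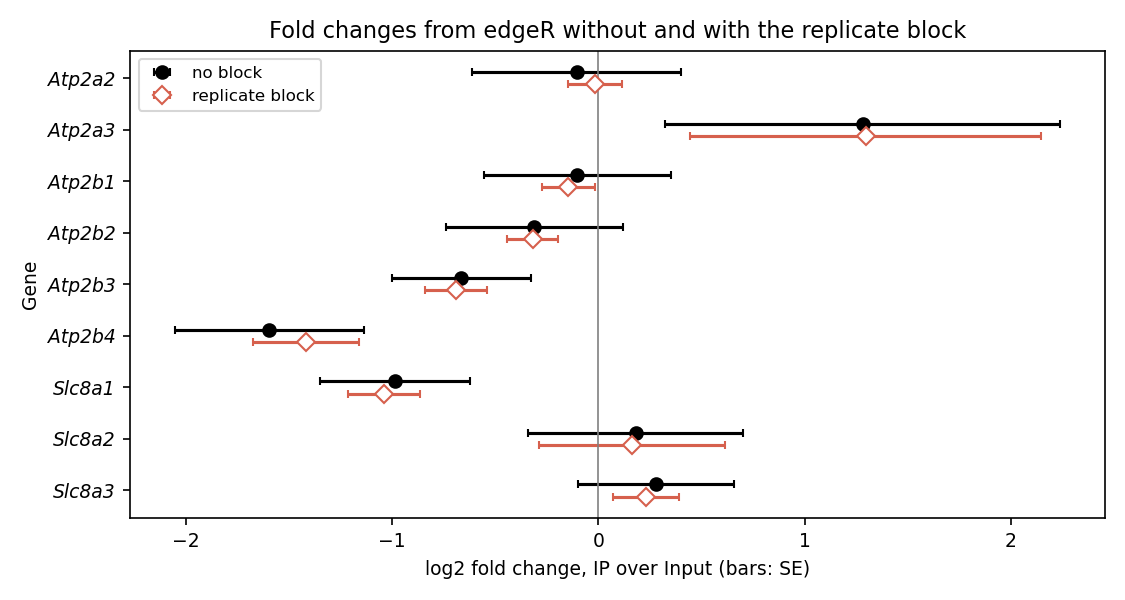
Log2 fold change of IP over Input for each gene from edgeR, with bars for the SE, without the replicate block (black circles) and with it (open red diamonds). Values with the block lie close to those without it but have smaller SE for 9 of the 9 genes, and Atp2b3, Atp2b4 and Slc8a1 lie furthest below 0.

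Atp2a2, the SERCA2 pump that fills the endoplasmic reticulum of most cells, differed between the groups by less than its spread between libraries. It lies on chromosome 5 from 122453513 to 122502225 (GRCm38). Its levels were 1645, 700 and 660 CPM in IP replicates 1, 2 and 3 and 1962, 698 and 574 CPM in Input. The groups overlapped, and replicate 1 was the high one in both. IP over Input was -0.11 ± 0.51 on the log2 scale (SE; edgeR adjusted p = 0.903), and -0.02 ± 0.13 in the blocked fit (edgeR adjusted p = 0.939). When libraries were left out the value ran from -0.65 to 0.66, with a change of sign, and passed in 0 of 9 fits.

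Atp2a3, the SERCA3 pump known from blood cells, endothelium and Purkinje cells, was barely detected (chromosome 11, 72961169 to 72993044, GRCm38). Read counts were 165, 34 and 48 in IP replicates 1, 2 and 3 and 64, 13 and 15 in Input. In CPM these were 3.35, 0.640 and 0.883 in IP and 1.39, 0.266 and 0.341 in Input. IP was the higher library at each replicate number, but the groups overlapped because Input replicate 1 lay above IP replicates 2 and 3. On the log2 scale the difference of 1.28 ± 0.96 failed the test (edgeR adjusted p = 0.368), as did 1.30 ± 0.85 with the block (edgeR adjusted p = 0.267). Leaving out libraries gave values from 0.20 to 2.42.

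The plasma membrane pumps were led by Atp2b1 and Atp2b2 in both groups. Atp2b1, PMCA1, the pump found in nearly all tissues, lies on chromosome 10 from 98914406 to 99026143 (GRCm38). It had 911, 346 and 346 CPM in IP replicates 1, 2 and 3 and 920, 392 and 409 CPM in Input. Within each replicate number IP was a little lower, and the groups overlapped. The fitted log2 difference was -0.10 ± 0.45 (edgeR adjusted p = 0.896), and -0.15 ± 0.13 with the block (edgeR adjusted p = 0.411).

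Atp2b2, PMCA2, is the fast pump of neurons and of hair cells in the inner ear, and lies on chromosome 6 from 113743831 to 114042613 (GRCm38). Its levels were 828, 334 and 364 CPM in IP and 1015, 441 and 436 CPM in Input replicates 1, 2 and 3. Each IP library lay below the Input library of its number, at log2 ratios of -0.29, -0.40 and -0.26, while the groups overlapped because of replicate 1. The fit gave -0.31 ± 0.43 and no call (edgeR adjusted p = 0.644), and neither was there one at -0.32 ± 0.12 with the block (edgeR adjusted p = 0.0701). Without Input replicate 1 the sign turned, at 0.22.

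Atp2b3, PMCA3, a pump largely restricted to neurons among adult tissues, is X-linked (chromosome X, 73503086 to 73571005, GRCm38). It had 127, 56.4 and 78.2 CPM in IP replicates 1, 2 and 3 and 182, 92.7 and 140 CPM in Input. IP was lower at each replicate number with log2 ratios of -0.52, -0.72 and -0.84, and the ranges overlapped only through IP replicate 1. Without the block the log2 value of -0.66 ± 0.34 missed the threshold (edgeR adjusted p = 0.183). Blocking on replicate number gave -0.69 ± 0.15, which passed it (edgeR adjusted p = 0.00530). Of 19 alternatives, the block was the only 1 under which it passed.

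Atp2b4, PMCA4, was the only gene of the 9 whose IP and Input levels did not overlap. It lies on chromosome 1 from 133699457 to 133801041 (GRCm38). Levels were 17.4, 12.7 and 22.3 CPM in IP replicates 1, 2 and 3 and 29.9, 32.6 and 95.8 CPM in Input. Input replicate 3 was about 3 times as high as the other Input libraries. The gene fell by 1.60 ± 0.46 on the log2 scale (SE), or 3.02-fold (edgeR adjusted p = 0.0339), with a mean of 17.4 ± 4.81 CPM in IP against 52.8 ± 37.3 CPM in Input (SD, n = 3), lower in 3 of 3 replicate numbers. Blocked, it fell by 1.42 ± 0.26 (edgeR adjusted p = 0.00191). Without Input replicate 3, the library with the raised striatal and choroid plexus markers, the value was -0.83 and did not pass (edgeR adjusted p = 0.0624). The call also ended without IP replicate 1, 2 or 3 (edgeR adjusted p = 0.0838, 0.114 and 0.0583) and when the pair numbered 2 was left out (edgeR adjusted p = 0.121). The part of the markers of Input replicate 3 in the Atp2b4 level was not tested.

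Slc8a1, the exchanger NCX1, known from heart and also made in neurons and glia, was lower in IP than in the Input library of its number in 3 of 3. It lies on chromosome 17 from 81373105 to 81738377 (GRCm38). Its levels were 373, 207 and 146 CPM in IP replicates 1, 2 and 3 and 662, 343 and 434 CPM in Input. Only IP replicate 1 reached into the Input range, just above Input replicate 2. The log2 difference of -0.99 ± 0.36 missed the threshold (edgeR adjusted p = 0.0796), while the blocked fit gave -1.04 ± 0.17 and a call (edgeR adjusted p = 0.00127). It also passed by DESeq2 at -0.99 (adjusted p = 0.0261), by limma-voom at -1.05 (adjusted p = 0.0496) and in edgeR with library totals, upper-quartile factors, pan-neuronal scaling or no filter (adjusted p = 0.0391, 0.0482, 0.0419 and 0.0491). The 2 further fits made the call, at -1.43 with IP replicate 1 left out (edgeR adjusted p = 0.0211) and at -1.13 with the pair numbered 1 left out (edgeR adjusted p = 0.0156). The markers of glia and vessels given above fell in the same direction as Slc8a1 and Atp2b4, and their part in these levels was not tested. In RNA of a whole tissue, fewer cells of a type and less RNA per cell cannot be told apart.

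Slc8a2, NCX2, an exchanger of brain neurons, went both ways between replicate numbers. It lies on chromosome 7 from 16129826 to 16161063 (GRCm38). Levels were 46.9, 17 and 15.7 CPM in IP and 15.4, 14.6 and 40.3 CPM in Input replicates 1, 2 and 3. IP replicate 1 and Input replicate 3 were high and the other 4 libraries alike. IP over Input was 0.18 ± 0.52 on the log2 scale (edgeR adjusted p = 0.836). With libraries left out it ranged from -0.74 to 1.10.

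Slc8a3, NCX3, found in brain and skeletal muscle, was slightly higher in IP at each replicate number (chromosome 12, 81197915 to 81333180, GRCm38). It had 129, 51.5 and 66.3 CPM in IP and 96.8, 47.1 and 59.9 CPM in Input replicates 1, 2 and 3, and the groups overlapped. This difference, 0.28 ± 0.38 on the log2 scale, was not called (edgeR adjusted p = 0.638), nor was 0.23 ± 0.16 with the block (edgeR adjusted p = 0.291). Scaling on the summed pan-neuronal markers moved the median of all genes by -0.50 and turned the signs of Slc8a2 and Slc8a3, to -0.21 and -0.17.

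The mix within each family was compared by the ratio of 2 members' reads within a library, which needs no scaling between libraries and no gene length. Of 10 pairs, 3 had ratios that did not overlap between IP and Input (30.0% of the pairs, with no share for ratios of other genes computed): Slc8a1 to Slc8a3, Atp2a2 to Atp2a3, and Atp2b1 to Atp2b2. With 3 libraries against 3 the two-sided exact permutation test cannot go below p = 0.10, and each of these pairs had that value (adjusted p = 0.333 over 10 pairs). In 9 of 10 pairs the ratio moved in the same direction at 3 of 3 replicate numbers, but the ratios share members and are not separate counts, and single genes did so in 33.7% (lower) and 30.3% (higher) of the genes tested. None of these differences passed the test. An exact sign-flip test over the same-numbered pairs, added after the data were seen, cannot go below p = 0.25 with 3 pairs and so could not pass either.

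Among the exchangers, Slc8a1 and Slc8a3 differed in mix. The log2 ratio of Slc8a1 to Slc8a3 was 1.53, 2.0 and 1.14 in IP replicates 1, 2 and 3 and 2.77, 2.86 and 2.86 in Input. The Input values had an SD of 0.05 and all IP values lay below them, with differences of -1.25, -0.86 and -1.71 at replicate numbers 1, 2 and 3. The mean ratio was thus 2.42-fold lower in IP. As shares of the family's reads per kilobase, Slc8a1 took 39.0 ± 6.37% in IP and 59.6 ± 4.0% in Input, and Slc8a3 46.6 ± 6.59% and 29.5 ± 2.74% (SD, n = 3). With reads divided by coding length instead, Slc8a1 took 68.0% in IP and 83.2% in Input, and Slc8a3 24.5% and 12.2%. Which exchanger took the largest share in IP thus depended on the length used, while the lower Slc8a1 share in IP did not. Slc8a2 had 14.4 ± 2.11% in IP and 10.9 ± 6.66% in Input, with overlap.

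**Figure D3:**
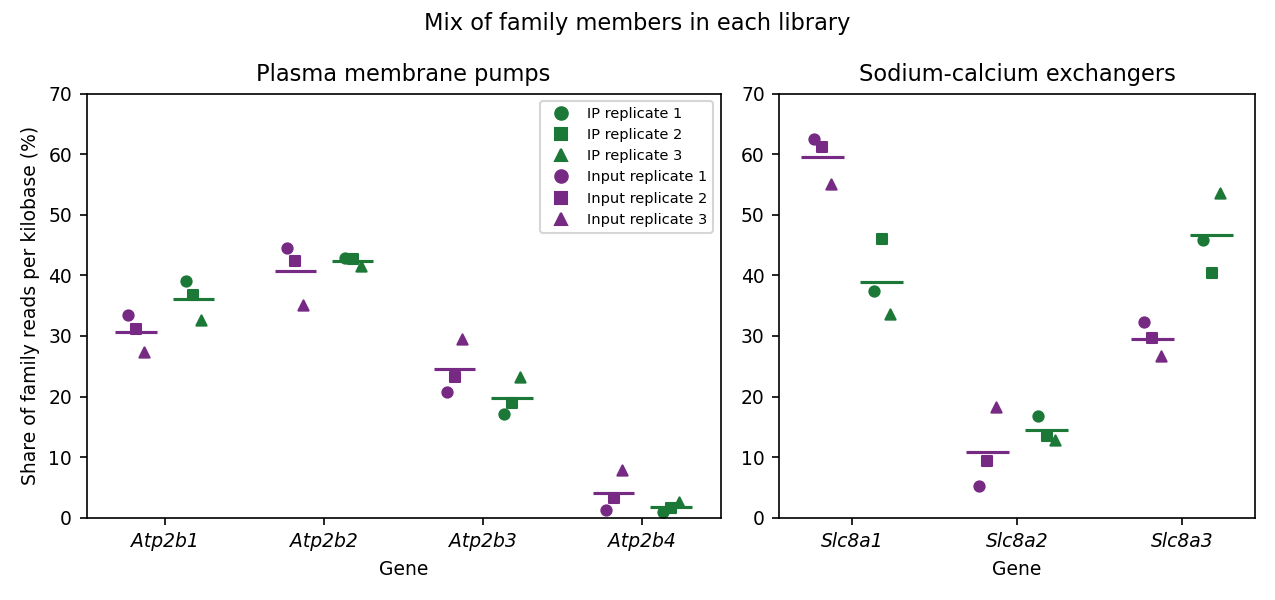
Share of each member in the reads per kilobase of its family, in percent, for the plasma membrane pumps (left) and the exchangers (right), with points for libraries and bars for the mean of 3. The Slc8a1 share is 33.6 to 46.0% in IP and 55.0 to 62.6% in Input, while the pump shares overlap between the groups.

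Among the plasma membrane pumps, Atp2b1 and Atp2b2 together gave most of the family's reads per kilobase in every library. The log2 ratio of Atp2b1 to Atp2b2 was 0.14, 0.05 and -0.08 in IP and -0.14, -0.17 and -0.09 in Input replicates 1, 2 and 3. The groups did not overlap, but the difference in means was only 0.17, and IP replicate 3 differed from Input replicate 3 by 0.02. Atp2b1 took 36.1 ± 3.26% in IP and 30.6 ± 3.06% in Input, Atp2b2 42.4 ± 0.76% and 40.7 ± 4.87%, Atp2b3 19.8 ± 3.15% and 24.6 ± 4.51%, and Atp2b4 1.74 ± 0.845% and 4.17 ± 3.40% (SD, n = 3). Each of these 4 shares overlapped between the groups. With reads divided by coding length instead, Atp2b1 took 46.1% in IP and 40.8% in Input, and Atp2b2 44.0% and 44.1%. Atp2b3 then took 8.04% and 10.4%, and Atp2b4 1.82% and 4.64%. Which pump led in IP, and the size of the Atp2b3 share, thus depended on the length used.

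The pairs with Atp2b4 differed more than Atp2b1 to Atp2b2 and varied more between libraries. The log2 ratio of Atp2b1 to Atp2b4 was 5.71, 4.77 and 3.96 in IP and 4.94, 3.59 and 2.10 in Input replicates 1, 2 and 3. It was higher in IP at each number, by 0.77, 1.19 and 1.86, although the ranges overlapped (exact permutation p = 0.3, adjusted p = 0.429). The ratio was highest in replicate 1 and lowest in replicate 3 in both groups. For Atp2b1 to Atp2b3 the differences at replicate numbers 1, 2 and 3 were alike, at 0.50, 0.54 and 0.60 (exact permutation p = 0.2, adjusted p = 0.4).

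Of the reticulum pumps Atp2a2 gave nearly all reads. Its share of the reads per kilobase of the pair was 99.8 ± 0.0649% in IP and 99.9 ± 0.0191% in Input (SD, n = 3). The log2 ratio of Atp2a2 to Atp2a3 was 8.94, 10.1 and 9.55 in IP and 10.5, 11.4 and 10.7 in Input replicates 1, 2 and 3, or 2.49-fold lower in IP by the means. This ratio rests on 13 to 165 reads of Atp2a3 a library.

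**Figure D4:**
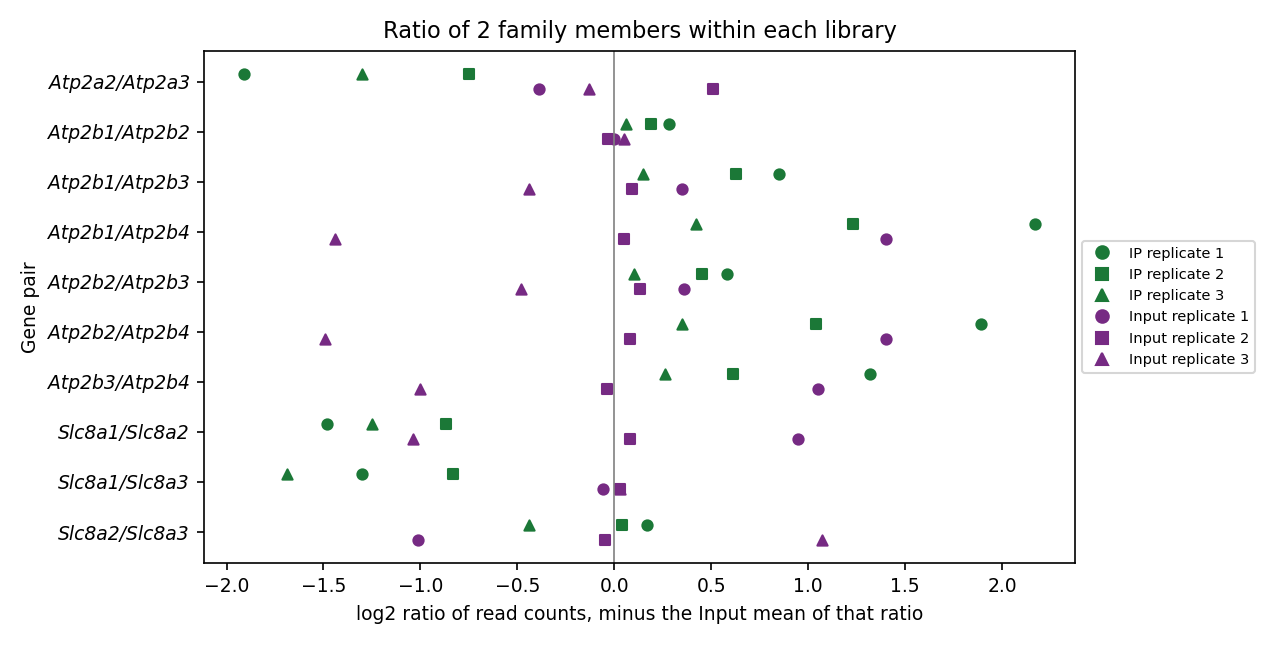
Log2 ratio of the read counts of 2 family members within each library, less the mean of that ratio in Input, so that Input points centre on 0, with IP in green and Input in purple. IP and Input points are apart for 3 of 10 pairs, of which Slc8a1 to Slc8a3 has the most closely grouped Input points after Atp2b1 to Atp2b2.

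Other genes that move, bind or release calcium went both ways. Of 51 further names, 48 were tested, of which 8 rose and 6 fell in IP (13 and 12 in the blocked fit). The list's median was -0.02 on the log2 scale, beside -0.04 for all genes, of which 9.6% rose and 15.6% fell. Of 9 tested other pumps and exchangers, among them the Golgi pump Atp2c1 and the potassium-dependent exchangers Slc24a1 to Slc24a5, 0 were called by edgeR or limma-voom, 1 was lower by DESeq2, and 0 were higher and 2 lower at an unadjusted edgeR p under 0.05. With the block 1 was higher and 2 lower. The most abundant of them, Slc24a2, had 895, 364 and 432 CPM in IP replicates 1, 2 and 3 and 1801, 685 and 577 CPM in Input. Its log2 difference of -0.86 ± 0.48 was not called (edgeR adjusted p = 0.223), but that of -0.78 in the blocked fit was (edgeR adjusted p = 0.00237), as was -0.66 with the pair numbered 1 left out (edgeR adjusted p = 0.0356).

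Of 10 tested partners of the pumps, 3 rose and 2 fell. With the replicate block 5 were higher and 2 lower, with Nptn and Bsg gained (edgeR adjusted p = 0.0283 and 0.0167). Among the risers were Calm2 and Calm3, which encode calmodulin, the activator of the PMCA pumps. Calm2 rose by log2 1.44 ± 0.15, from 821, 904 and 962 CPM in Input replicates 1, 2 and 3 to 2496, 2285 and 2520 CPM in IP (edgeR adjusted p = 0.000606), with no overlap. Calm3 rose by log2 0.92 ± 0.23 (edgeR adjusted p = 0.0214). Calm2 passed in 19 of 19 alternatives, while the call of Calm3 ended without Input replicate 2, IP replicate 2 or IP replicate 3 (edgeR adjusted p between 0.0624 and 0.0756), without the pair numbered 2 (0.179) and with pan-neuronal scaling (0.223). S100a1, a calcium-binding protein that acts on SERCA in muscle, fell to 0.840 ± 0.255 CPM in IP (edgeR adjusted p = 0.000505), beside 21.2 ± 10.6 CPM in Input (SD, n = 3). Pln, phospholamban, the inhibitor of SERCA2 in heart, had 6 IP reads and 285 Input reads in all, a ratio of 1.86% with an exact 95% counting interval from 0.678% to 4.11% (edgeR adjusted p = 0.00268). Its edgeR adjusted p was 0.0533 with the pair numbered 2 left out.

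Among calcium release channels of the reticulum, 3 were called lower in IP. Of 11 tested genes of release and store-operated entry, 0 rose and 3 fell: Itpr2, Ryr3 and Ryr2, at -3.37 ± 0.46, -2.53 ± 0.27 and -1.94 ± 0.30 on the log2 scale (edgeR adjusted p = 0.00182, 0.000557 and 0.00308). Itpr2 encodes the inositol trisphosphate receptor prominent in astrocytes, and Ryr2 and Ryr3 encode ryanodine receptors. Ryr3 had 33.9, 21.3 and 18.4 CPM in IP and 144.6, 122.7 and 157.7 CPM in Input replicates 1, 2 and 3, with no overlap. The Ryr2 call ended with the pair numbered 2 left out (edgeR adjusted p = 0.0583). Itpr1, the main neuronal inositol trisphosphate receptor, did not pass, at 0.12 ± 0.20 (edgeR adjusted p = 0.693). The astrocyte and GABAergic markers given above fell in the same direction as these 3 genes, and their part was not tested. At an unadjusted edgeR p under 0.05, 1 gene of this group, Orai3, was higher and 4 were lower, the same numbers as by DESeq2, while limma-voom called 0 higher and 3 lower. With the replicate block 2 were higher, Orai3 and Saraf (edgeR adjusted p = 0.0101 and 0.0188), and 4 lower, with Ryr1 gained (edgeR adjusted p = 0.0337).

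Of 7 genes of the reticulum lumen 1, Hrc, fell, with 3 IP reads and 53 Input reads in all, a ratio of 5.01% with an exact 95% counting interval from 1.0% to 15.5%. Its call (edgeR adjusted p = 0.0372) ended with the replicate block (edgeR adjusted p = 0.0813), with no filter, in 5 of 6 fits without 1 library and in each fit without a same-numbered pair (edgeR adjusted p between 0.0661 and 0.235). In this group 0 genes were higher and 2 lower at an unadjusted edgeR p under 0.05 and by DESeq2, and 0 higher and 1 lower by limma-voom. Of 8 genes of mitochondrial calcium uptake, 3 rose and 0 fell, and 2 were lower at an unadjusted edgeR p under 0.05, by DESeq2 and with the replicate block, but 0 by limma-voom. Ccdc109b, now named Mcub, a subunit that limits uptake, rose by log2 2.70 ± 0.74, Micu3, a neuronal regulator of the uniporter, by 1.11 ± 0.20, and Smdt1, an essential small subunit, by 0.87 ± 0.25 (edgeR adjusted p = 0.0287, 0.00540 and 0.0358). Without Input replicate 2, IP replicate 1 or IP replicate 2 the Ccdc109b and Smdt1 calls ended, with edgeR adjusted p between 0.0553 and 0.119, and that of Smdt1 also without IP replicate 3 (edgeR adjusted p = 0.0837), without the pair numbered 3 (0.0516), with library totals (0.0602) and with upper-quartile factors (0.0608). All 3 calls ended without the pair numbered 2 and with pan-neuronal scaling (edgeR adjusted p between 0.0663 and 0.327). Of the 3 cytosolic buffers, which include Pvalb (lower with the replicate block, edgeR adjusted p = 0.00868), Calb2 and Calb1 rose, by log2 1.91 ± 0.31 and 0.75 ± 0.19 (edgeR adjusted p = 0.00389 and 0.0222). Calb2 is also among the thalamic glutamatergic markers called higher above, so both counts share this gene. The Calb1 call ended without Input replicate 2, IP replicate 1 or IP replicate 2 (edgeR adjusted p = 0.0683, 0.0506 and 0.0926), without the pair numbered 2 (0.229) and with pan-neuronal scaling (0.485).

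**Figure D5:**
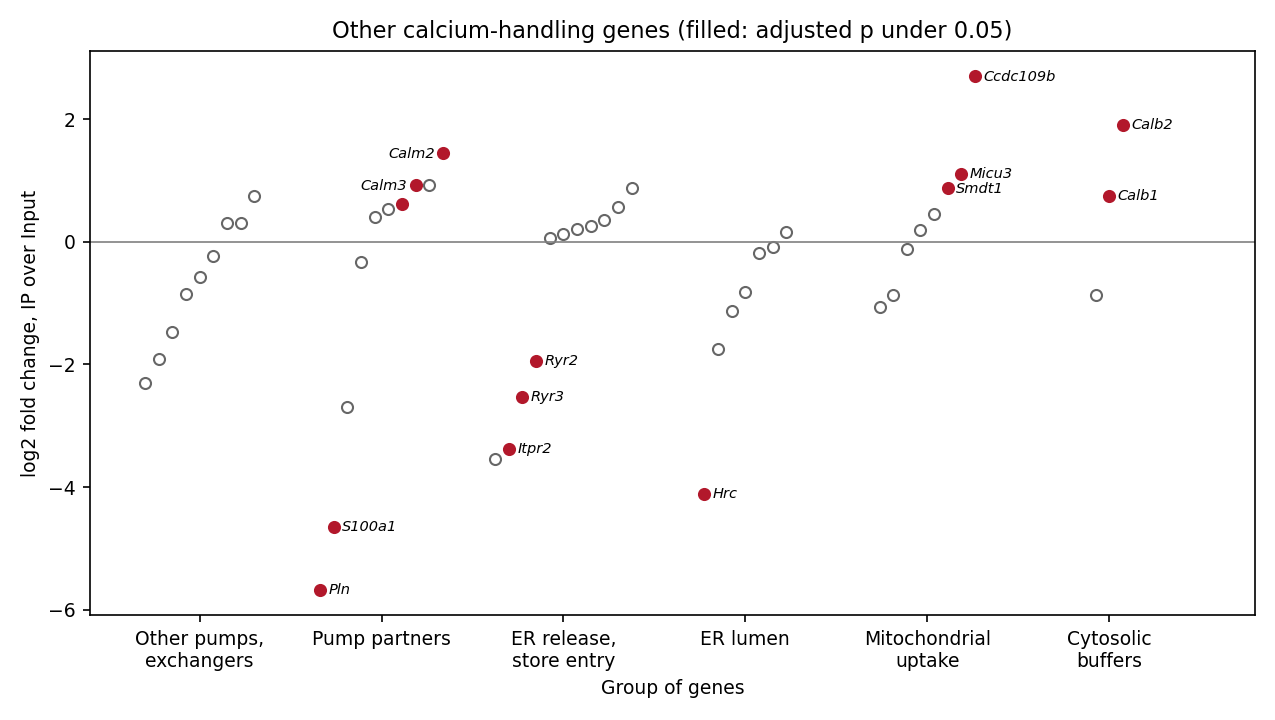
Log2 fold change of IP over Input for 48 other calcium-handling genes by group, with filled red points for an edgeR adjusted p under 0.05 and open points for the rest, and with names for called genes more than 0.7 from 0. Calm2 and Calm3 lie above 0 and the called release channels Itpr2, Ryr3 and Ryr2 lie below it.

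The genes most like the leading member of each family were found by the root mean square distance between log2(CPM + 1) profiles over the 6 libraries, each centred on its mean, among genes averaging 5 CPM or more. Nearest to Atp2a2 were Lgr5 and Tmx4, at distances of 0.064 and 0.083. Nearest to Atp2b2 were Lmbrd1 and Ric3, at 0.061 and 0.084, and nearest to Slc8a1 were Uggt1 and Atp9b, at 0.089 and 0.111. Because these 6 genes were chosen by profile, that they shared the high replicate 1 of the members follows from the choice. Tmx4, for instance, had 528, 233 and 236 CPM in IP and 581, 220 and 181 CPM in Input replicates 1, 2 and 3. The points of each profile share library and depth, so the likeness is a description.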

How the data were processed

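The authors deposited whole-number read counts per gene, 1 table for each of 6 libraries. The submitters' processing notes name STAR 2.0.0e, HTSeq and the build mm10. Which annotation, HTSeq mode or strand setting was used is not given in the sources used. Counts are per gene, so splice variants are not told apart. Reads with several alignments stand outside the gene rows. They were 38.5% to 45.0% of records in IP and 23.6% to 27.2% in Input, without overlap, and their part in the comparison of paralogs was not tested. IP replicate 1 had the most of them. Reads counted as ambiguous between genes were 1.53% to 1.92% in IP and 7.37% to 13.2% in Input, most in Input replicate 1. Reads in no gene were 7.65% to 7.85% in IP and 14.05% to 17.7% in Input. The part of these reads in the levels, those of replicate 1 included, was not tested.

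Groups and replicate numbers came from the titles, lanes from the descriptions. Counts were filtered with filterByExpr, scaled by TMM and tested with edgeR 4.0.16 in R 4.3.3. The quasi-likelihood test was two-sided, with Benjamini-Hochberg over 16496 genes and a threshold of 0.05, without a replicate block as designed. It was also run on simulated counts. These held no replicate or lane effect, so that check could not judge the lack of a block. CPM are TMM-scaled. Same-numbered libraries deviated together from their group means (r across genes = 0.456, 0.215 and 0.246), so the numbers, from the titles, were taken as pairs. For libraries of unlike number r lay between -0.336 and 0.047. Both libraries of replicate numbers 1, 2 and 3 ran in lanes 3, 8 and 4. A shared sample and a shared lane therefore cannot be told apart, here or in the block. Alternatives were RLE, library total, upper-quartile and pan-neuronal scaling, DESeq2 1.42.0, limma-voom (limma 3.58.1), other filters, protein-coding genes only, the block, and leaving out libraries. Ratios were tested with an exact permutation test over libraries, and over same-numbered pairs. Gene models were GENCODE M21 on GRCm38, the assembly of mm10. Exons of Atp2a2, Atp2b4 and Slc8a1 overlapped other annotated genes by at most 1.57% of their length.

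The genes and lists were chosen with earlier results of these data known. All 9 genes were named. From each group of the calcium list the rule took up to 3 called genes in the main direction and 1 in the other, or the most abundant where none was called. The 2 genes most like each family's leading member were named too. S100a1, Itpr1, Orai3, Saraf, Ryr1, Nptn, Bsg and the genes under other observations were named after their values were seen. Some sequences and 1 named gene's values are not reported here.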

Additional observations from a re-analysis of the deposited data

How the results depend on the processing

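Few reads limit Atp2a3, Pln and Hrc, and also Slc8b1, Casq1, Sln, Mrln and Slc24a1 in the calcium list. With 3 libraries a group the ratio tests could not pass. Of the 9 genes, 0 were called higher in any alternative. The count of lower genes was 2 with library totals, upper-quartile factors, pan-neuronal scaling, DESeq2, limma-voom or no filter, 3 with the replicate block, and 0 to 2 when 1 library or replicate number was left out. The cause was not tested. Among the 9 genes and those the rule named from the calcium list, the block changed the calls of Atp2b3, Slc8a1, Slc24a2 and Hrc only. The block also changed the call of Slc17a6, as given above. All genes higher numbered 232 with pan-neuronal scaling and 2624 with the replicate block, and 83 to 1640 with libraries left out. All genes lower numbered 4091 with pan-neuronal scaling and 651 to 2598 with libraries left out. Of the calcium list, 2 rose with pan-neuronal scaling, 13 with the replicate block and 2 to 10 with libraries left out, and 11 fell with pan-neuronal scaling, 11 by DESeq2, 12 with the replicate block and 3 to 7 with libraries left out. Ratio pairs whose groups did not overlap numbered 3 to 7 with libraries left out, but fewer libraries by themselves make overlap less likely. As the counterpart of the replicate block, 9 ratios moved 1 way in 3 of 3 same-numbered pairs. With libraries left out, fold changes turned sign for Atp2a2 (-0.65 to 0.66), Atp2b1 (-0.72 to 0.42), Atp2b2 (-0.84 to 0.22), Slc8a2 (-0.74 to 1.10) and Slc8a3 (-0.19 to 0.63), and with pan-neuronal scaling for Slc8a2 (-0.21) and Slc8a3 (-0.17).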

Other observations

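Some calcium genes outside the rule for named genes, picked after their values were seen, passed only in other fits. With the replicate block the exchanger gene Slc24a3 was higher in IP, at 0.91 ± 0.20 on the log2 scale (SE; edgeR adjusted p = 0.00552). It had 568, 303 and 305 CPM in IP replicates 1, 2 and 3 and 411, 188 and 102 CPM in Input, higher in IP at each number. With all libraries and no block it did not pass (edgeR adjusted p = 0.279). Without a block it passed with Input replicate 1 left out (1.44, edgeR adjusted p = 0.0267) or the pair numbered 1 left out (1.07, 0.037). The mitochondrial genes Micu2 and Mcur1 had log2 fold changes of -0.87 and -1.06 (edgeR adjusted p = 0.0672 and 0.0710), and -0.88 and -1.08 with the block (edgeR adjusted p = 0.0147 and 0.00667), opposite in sign to Micu3. Both also passed by DESeq2 (adjusted p = 0.0356 and 0.0248) and with pan-neuronal scaling (edgeR adjusted p = 0.00822 and 0.0331). Micu2 passed without Input replicate 1 too (edgeR adjusted p = 0.0439). Mcur1 passed with library totals, with upper-quartile factors and without IP replicate 1 (edgeR adjusted p = 0.0428, 0.0464 and 0.0328). Pvalb, parvalbumin, a buffer of fast-spiking inhibitory neurons, had 35.5, 16.4 and 40.3 CPM in IP and 47.2, 46.6 and 75.3 CPM in Input, a log2 fold change of -0.87 (edgeR adjusted p = 0.102, and 0.00868 with the block). Hspa5, the chaperone BiP, had -0.82 (edgeR adjusted p = 0.101, and 0.0139 with the block), with 307 CPM in Input replicate 1 and 134 and 135 CPM in Input replicates 2 and 3. Pvalb and Hspa5 also passed with pan-neuronal scaling (edgeR adjusted p = 0.0238 and 0.0329), and Hspa5 by DESeq2 (adjusted p = 0.0489).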
